A study of Mus musculus with 19 samples.

Results

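Chi3l3, Arg1, Mrc1, Retnla, Msr1 and Stab1 are genes of alternative activation, the state that macrophages and related myeloid cells take up under interleukin-4 and similar signals. The 6 genes were looked up by symbol in 3 tables of sorted cells, and 5 of the 6 had a row in at least 1 table, out of 6843 genes in any table. Chi3l3 (the older name of Chil3), Arg1 and Stab1 were in all 3 tables, Msr1 was in the microglia and monocyte tables, and Mrc1 was in the monocyte table. Retnla was not analysed here. The study sorted astrocytes, microglia and monocytes by flow cytometry from the central nervous system of female wild-type C57Bl/6 mice at postnatal day 85, and counted RNA at the 3′ ends of transcripts in 19 libraries. Every mouse had experimental autoimmune encephalomyelitis (EAE), a model of multiple sclerosis, after 25 µg of MOG35-55, a peptide of myelin, in CFA (complete Freund's adjuvant). Every mouse had also received an intracranial lentivirus, which was pLenti-Gfap-GFP-shScramble in one group and pLenti-Gfap-GFP-shXbp1 in the other, so no group lacked virus or disease. Its cargo is under the promoter of Gfap, an astrocyte gene, so that microglia and monocytes were compared by which hairpin their host's astrocytes received. Libraries labelled shScrmbl (non-targeting) and shXbp1 (aimed at the stress transcription factor Xbp1) numbered 4 and 4 in astrocytes, 4 and 3 in microglia, and 2 and 2 in monocytes.

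In alternative activation, interleukin-4 or interleukin-13 binds a receptor that contains Il4ra, and the transcription factor STAT6 then raises a set of genes in mouse macrophages. Its best-known products include a secreted protein and an enzyme: Chi3l3 encodes Ym1, a chitinase-like lectin, and Arg1 encodes arginase, which turns arginine into ornithine and urea and so competes with nitric oxide synthesis. Mrc1, Msr1 and Stab1 encode endocytic receptors: the mannose receptor CD206, the class A scavenger receptor for modified lipoproteins, and stabilin, which carries ligands to lysosomes. In EAE these genes are known mainly from monocyte-derived phagocytes that enter the tissue. Chi3l3 is also transcribed in classical monocytes and maturing neutrophils, and Mrc1 and Stab1 mark macrophages at the borders of the brain.

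The promoters of Chi3l3 and Stab1 are shown because Chi3l3 had a lower mean with shXbp1 in every cell type, and Stab1 alone had a higher mean with shXbp1 in 1 cell type. Both are the 250 bases before the start of the gene, on its own strand, from RefSeq (GRCm38.p6), which had an entry for 4 of the 6 genes. Capitals mark a STAT-type site in Chi3l3, at chr3:106167565-106167814 (minus strand), and a PU.1-type core in Stab1, at chr14:31168642-31168891 (minus strand).

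Chi3l3: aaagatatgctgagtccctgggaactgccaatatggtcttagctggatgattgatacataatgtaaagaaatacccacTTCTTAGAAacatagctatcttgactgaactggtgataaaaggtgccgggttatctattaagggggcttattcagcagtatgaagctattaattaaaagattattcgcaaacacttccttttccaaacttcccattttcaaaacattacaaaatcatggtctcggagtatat
Stab1: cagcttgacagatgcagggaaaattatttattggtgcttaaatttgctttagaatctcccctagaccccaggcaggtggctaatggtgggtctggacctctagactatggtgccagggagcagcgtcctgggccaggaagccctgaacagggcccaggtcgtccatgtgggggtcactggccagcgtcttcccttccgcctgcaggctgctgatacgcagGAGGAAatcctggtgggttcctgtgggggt

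The motifs searched, on both strands, were the STAT6-type TTCNNNNGAA, the STAT-type TTCNNNGAA and the PU.1-type GAGGAA, and the matches shown overlapped no other. The Chi3l3 window held TTCNNNGAA from base -172 to -164 and the Stab1 window held GAGGAA from base -30 to -25, counted from the gene's start. Of 32851 promoters of the same length 5.85% held TTCNNNNGAA, 7.02% held TTCNNNGAA and 23.3% held GAGGAA, so that these matches are common, and they describe letters and not binding.

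The libraries were shallow, with 32842 to 302003 counts in astrocytes, 10039 to 122002 in microglia and 15654 to 112676 in monocytes. Values are the deposited normalized signal, in which 1 count was worth 4.22 to 27.6 in astrocytes, 9.33 to 76.0 in microglia and 9.11 to 50.6 in monocytes. A count of 0 therefore allowed a signal of up to 12.7 to 82.7, 28.0 to 228 and 27.3 to 152 (3 counts), covering counting error only. The 3 tables were normalized apart, so levels across cell types are set side by side and not tested. Xbp1 itself had a pooled ratio of shXbp1 to shScrmbl signal of 0.895 in astrocytes (95% counting interval 0.494 to 1.64, 28 and 22 counts; 1.35 without shScrmbl 2), which does not settle whether it was lowered, so shXbp1 and shScrmbl are used below as the labels' names. All 12 microglia markers were above 0 in every microglia library. All 13 monocyte and macrophage markers (Chi3l3 left out) were in the monocyte table, of which Emr1 was 0 in shXbp1 1. The astrocyte libraries had 10 of 12 astrocyte markers (Gfap and Ntsr2 were not analysed here). The astrocyte libraries also had all 12 microglia markers, summing to 1324 to 3821, and 8 choroid plexus markers that summed to 149159 to 309747 against 1109 to 1791 for the astrocyte markers. In microglia 3 choroid plexus markers summed to 18000 to 63792, against 7160 to 12641 for the 12 microglia markers. In monocytes 2 of them summed to 3745 to 8039, against 6421 to 22163 for the monocyte and macrophage markers. In sorted bulk samples like these, fewer cells of a type and less RNA per cell cannot be told apart.

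Chi3l3 (chromosome 3, 106147554 to 106167564, minus strand, GRCm38) was lower on average with shXbp1 in each of the 3 cell types, and did not pass limma, edgeR or DESeq2 in any when all libraries were fitted. In monocytes its signal was 1230 and 2231 in the shScrmbl libraries and 0 and 900 in the shXbp1 libraries. Both shXbp1 monocyte libraries thus lay under both shScrmbl libraries, and the 0 was in the shallowest monocyte library, where it allowed a signal of up to 152. In microglia Chi3l3 was 104, 909, 3426 and 160 with shScrmbl and 76.0, 207 and 23.9 with shXbp1. The groups overlapped there, since 2 of the 4 shScrmbl libraries were under the highest shXbp1 library, and the mean of the group rested on shScrmbl 2 and 3. In astrocytes Chi3l3 was 0, 152, 293 and 110 with shScrmbl and 0, 62.6, 0 and 13.3 with shXbp1. Apart from the 0 of shScrmbl 1, every shScrmbl astrocyte library was above every shXbp1 one. Chi3l4, a near copy of Chi3l3, was not analysed here, and reads of the pair can be split between them, so the values of Chi3l3 are uncertain to that extent.

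Chi3l3 averaged 1730 ± 708 and 450 ± 637 in shScrmbl and shXbp1 monocytes (SD, n = 2 and 2), from 333 and 43 counts. The microglia means were 1150 ± 1561 and 102 ± 94.3 (n = 4 and 3), from 445 and 5 counts. The astrocyte means were 139 ± 121 and 18.96 ± 29.7 (n = 4 and 4), from 51 and 15 counts. Pooled over libraries, the shXbp1 signal was 0.347 of the shScrmbl signal in monocytes (95% counting interval 0.246 to 0.477), 0.0373 in microglia (0.0121 to 0.0878) and 0.207 in astrocytes (0.108 to 0.374). These intervals hold only the error of counting and not the spread between mice. The microglia ratio rested largely on shScrmbl 3, which held 367 of 445 counts: it was 0.114 without that library (0.0360 to 0.278), 0.0189 without shXbp1 2 and 0.0750 without shXbp1 3. Without shXbp1 2 the astrocyte ratio was 0.0463 (0.00546 to 0.176), and no Chi3l3 count was left in shXbp1 monocytes.

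**Figure D1:**
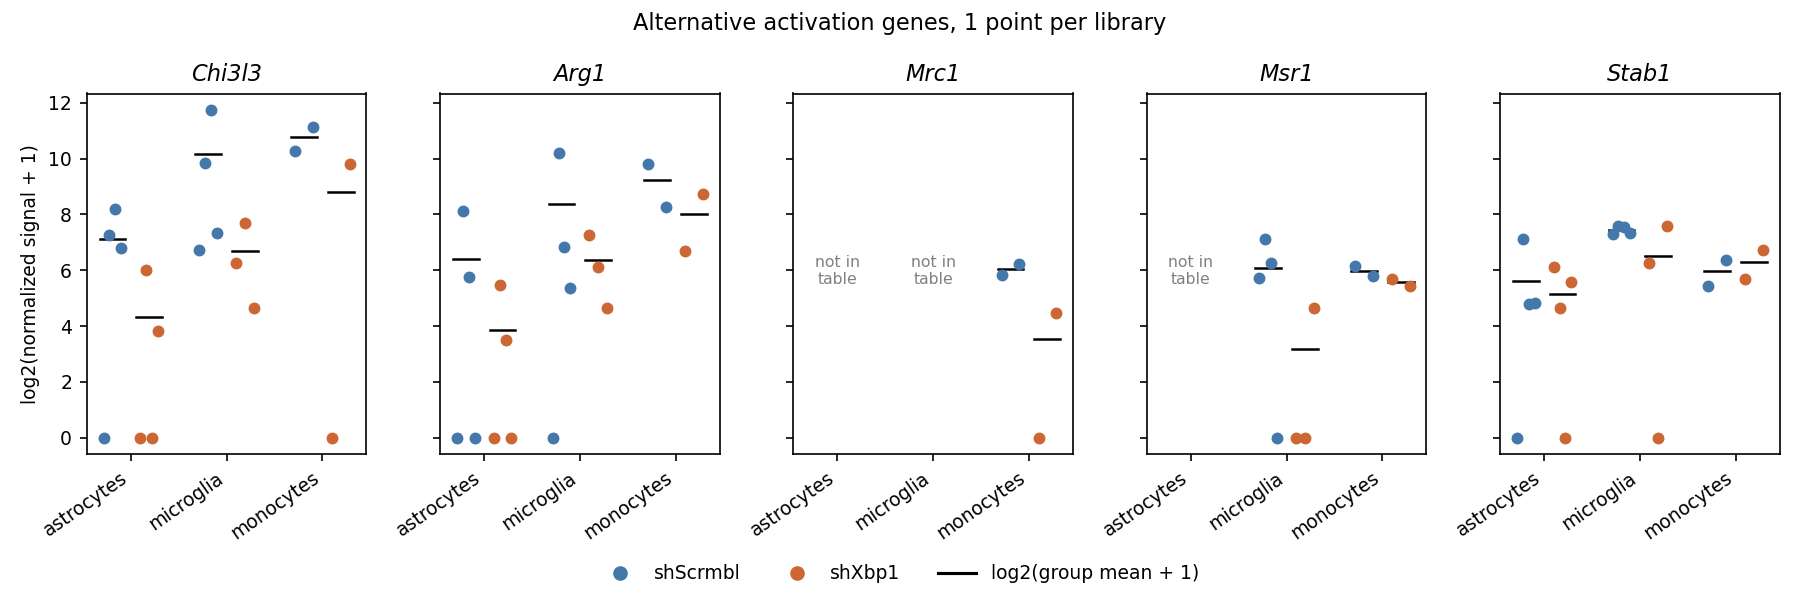
Each point is 1 library: log2(normalized signal + 1) on the vertical axis, by cell type and hairpin, with a bar at the log2 of the group mean + 1. Both shXbp1 monocyte values of Chi3l3 lie under both shScrmbl values, and Arg1 overlaps between hairpins in every cell type. The 4 shScrmbl microglia values of Stab1 lie close together, on 3 to 20 counts each.

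Arg1 (chromosome 10, 24915221 to 24927484, minus strand) had lower group means with shXbp1 in all 3 cell types, with overlapping groups in each. Its signal in monocytes was 894 and 310 with shScrmbl and 101 and 419 with shXbp1, so that the higher shXbp1 value lay between the 2 shScrmbl values. In microglia it was 0, 1174, 112 and 40.0 with shScrmbl and 152, 69.0 and 23.9 with shXbp1. A single library, shScrmbl 2, stood above all others there and held 93 of the 106 shScrmbl counts. Astrocyte values were 0, 278, 53.3 and 0 with shScrmbl and 0, 43.3, 10.4 and 0 with shXbp1. Again shScrmbl 2 was highest, with 66 of 68 counts, and 4 of the 8 astrocyte libraries had none.

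The Arg1 means were 602 ± 413 and 260 ± 225 (SD, n = 2 and 2) in shScrmbl and shXbp1 monocytes, 331 ± 563 and 81.6 ± 65.0 (n = 4 and 3) in microglia, and 82.9 ± 133 and 13.4 ± 20.5 (n = 4 and 4) in astrocytes. The pooled ratio of shXbp1 to shScrmbl was 0.603 in monocytes (95% counting interval 0.361 to 0.965), 0.125 in microglia (0.0335 to 0.331) and 0.103 in astrocytes (0.0475 to 0.202). These ratios also rested on single libraries. In astrocytes the ratio was 1.21 without shScrmbl 2 and 0.0174 without shXbp1 2. The microglia ratio was 0.671 without shScrmbl 2 (0.159 to 2.17), 0.236 without shXbp1 3, 0.0757 without shScrmbl 3 and 0.0773 without shXbp1 1. In monocytes it was 1.05 without shScrmbl 1 (0.586 to 1.85), 0.364 without shScrmbl 2 and 0.187 without shXbp1 2. Without shScrmbl 2 the sign of the astrocyte difference turned, to 0.32 by limma (adjusted p = 0.958) and 0.13 by edgeR (adjusted p = 0.995).

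The balance of Arg1 and Chi3l3 counts was not the same in the libraries of one group. Among the counts of both genes, Arg1 made up 56.4% in microglia shScrmbl 2 (95% exact Clopper-Pearson interval 48.4 to 64.1, 165 counts) and 3.17% in microglia shScrmbl 3 (1.65 to 5.47, 379 counts). The intervals of these 2 libraries, which share a label and a cell type, did not overlap. The monocyte libraries showed a like spread, with 42.1% in shScrmbl 1 (34.2 to 50.4), 12.2% in shScrmbl 2 (8.59 to 16.6) and 31.7% in shXbp1 2 (20.6 to 44.7). Arg1 was 64.7% in astrocyte shScrmbl 2 (54.6 to 73.9), 15.4% in shScrmbl 3 (1.92 to 45.4, 13 counts) and 40.9% in shXbp1 2 (20.7 to 63.6, 22 counts). These intervals cover counting error only, so they compare libraries and not conditions, and the shXbp1 monocyte value lay between the 2 shScrmbl values. The other libraries with any count had few of either gene, and it is not given in the labels whether a number stands for 1 mouse across cell types.

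**Figure D2:**
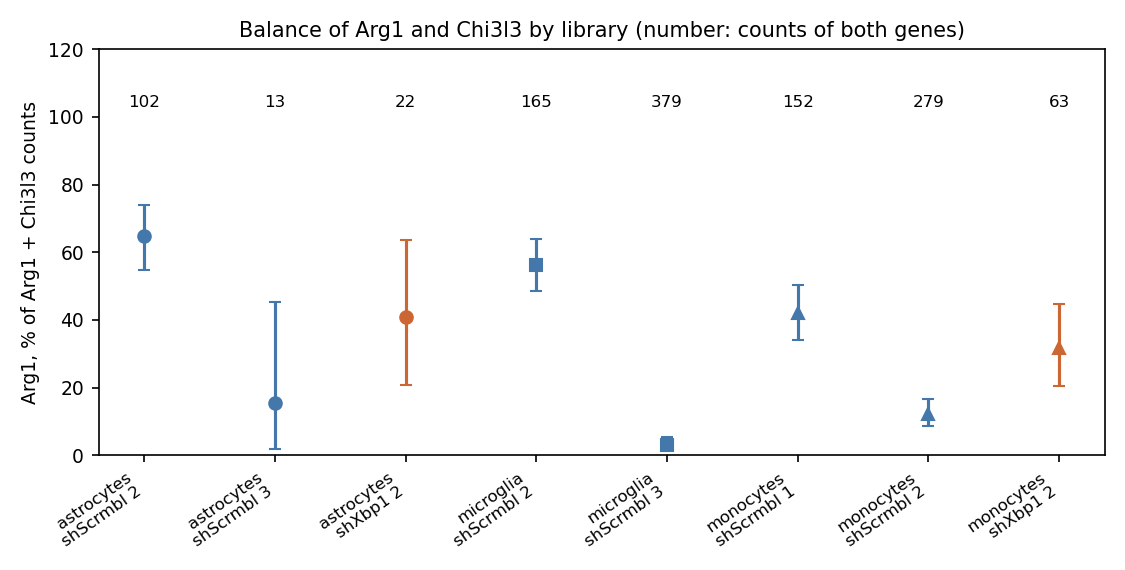
Share of Arg1 among Arg1 and Chi3l3 counts (percent) in the 8 libraries with the most counts of both genes; points are libraries, bars are 95% exact binomial intervals, and the numbers above are the counts. In microglia the share was 56.4% in shScrmbl 2 and 3.17% in shScrmbl 3.

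The 3 endocytic receptors rested on few counts, at most 51 of each in any cell type. Mrc1 (chromosome 2, 14229392 to 14332057, plus strand) was 55.9 and 72.8 in shScrmbl monocytes and 0 and 20.9 in shXbp1 monocytes. The groups did not overlap, on 12 counts against 1, and the 0 allowed a signal of up to 152, above both shScrmbl values. The pooled ratio was 0.224, with a counting interval of 0.00524 to 1.51 that included no difference, and without shXbp1 2 no Mrc1 count was left in that group.

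Msr1 (chromosome 8, 39581685 to 39642673, minus strand) was 51.9, 139, 74.7 and 0 in shScrmbl microglia and 0, 0 and 23.9 in shXbp1 microglia. That was 20 counts against 1, and the 2 zeros were in the 2 shallowest microglia libraries. The pooled ratio was 0.166 (95% counting interval 0.00401 to 1.04), and its 1 shXbp1 count was in shXbp1 3. In monocytes Msr1 was 69.9 and 54.6 with shScrmbl and 50.6 and 41.9 with shXbp1, a narrow gap without overlap (means 62.3 ± 10.8 and 46.2 ± 6.14, SD, n = 2 and 2) that rested on 11 and 3 counts.

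Stab1 (chromosome 14, 31139013 to 31168641, minus strand) varied least of the 4 genes measured among shScrmbl microglia, relative to its mean, at 156, 189, 187 and 160. These values rested on 3, 15, 20 and 4 counts. Their 95% counting intervals were 32.1 to 455, 106 to 312, 114 to 288 and 43.6 to 410. Each interval was wider than the spread of the 4 values, so counting error limits this comparison. The 3 shXbp1 microglia libraries gave 76.0, 0 and 192, so that 1 of them was above every shScrmbl library. The means were 173 ± 17.5 and 89.2 ± 96.4 (SD, n = 4 and 3), from 42 and 9 counts. In monocytes Stab1 was 41.9 and 82.0 with shScrmbl and 50.6 and 105 with shXbp1 (means 61.9 ± 28.3 and 77.6 ± 38.3, n = 2 and 2). It was the only 1 of the 5 genes with a higher mean in shXbp1 monocytes, on 12 and 6 counts. Astrocyte values were 0, 139, 26.6 and 27.6 with shScrmbl and 68.2, 24.1, 0 and 46.5 with shXbp1, with 33 of 35 shScrmbl counts in shScrmbl 2.

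By cell type, Chi3l3 ran from 0 to 2231 in monocytes (median 1065, n = 4), from 23.9 to 3426 in microglia (median 160, n = 7) and from 0 to 293 in astrocytes (median 37.9, n = 8). Among shScrmbl libraries the 2 monocyte values exceeded every astrocyte value, while microglia overlapped both neighbours. Arg1 took the same order by median, 364 in monocytes, 69.0 in microglia and 5.20 in astrocytes, and the lowest shScrmbl monocyte value of 310 was just above the highest astrocyte value of 278. Stab1 had another order: its median was 160 in microglia, 66.3 in monocytes and 27.1 in astrocytes. The 4 shScrmbl microglia values of Stab1 lay above all shScrmbl values of monocytes and astrocytes, and the last 2 overlapped. Msr1 had a median of 52.6 in monocytes and 23.9 in microglia, and those ranges overlapped. Mrc1 had a median of 38.4 in monocytes, the 1 table that held it.

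The first comparison asked whether the hairpin aimed at astrocyte Xbp1 went with a change of these genes in the astrocyte libraries. By limma on log2(signal + 1), 0 of the 3 genes measured passed an adjusted p of 0.05, where 0% of 6366 genes did. Chi3l3 had a log2 difference of -3.11 ± 1.82 (SE, 95% interval -6.89 to 0.68, limma adjusted p = 0.824), and edgeR's quasi-likelihood test on recovered counts gave -2.33 (adjusted p = 0.644). Arg1 had -1.23 by limma (95% interval -5.34 to 2.89, adjusted p = 0.881) and -2.70 by edgeR (adjusted p = 0.708), and Stab1 had -0.11 (-3.57 to 3.36) and -1.16. At an unadjusted p under 0.05 edgeR had 2 of the 3 (Chi3l3 at 0.00339 and Arg1 at 0.0278), against 6.52% of all genes, and limma and DESeq2 had 0 (4.68% and 2.06%). edgeR's adjusted test called 0 of 3 (0.0157%), as did DESeq2 (0%). All 3 genes were at or below -1 by edgeR, against 5.86% of all genes, and 0 of 3 had groups without overlap, against 3.16%. Leaving out 1 library changed the edgeR calls: without shScrmbl 1 it called Chi3l3 (-2.68, adjusted p = 0.00574; 8 genes in all), and without shXbp1 2 it called Chi3l3 (-4.20, adjusted p = 0.00217) and Arg1 (-4.74, adjusted p = 0.0159; 7 genes in all).

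Markers of monocytes and macrophages also had a lower mean in the shXbp1 astrocyte libraries. The 8 of 13 in the table summed to 522, 4795, 1145 and 965 with shScrmbl and 716, 1473, 885 and 777 with shXbp1, so that shScrmbl 2, the deepest library, with 66 of the 78 Arg1 counts and 33 of the 51 Stab1 counts of all astrocyte libraries, had the most. Chi3l3 per 1000 of that sum was 0, 31.7, 256 and 114 with shScrmbl and 0, 42.5, 0 and 17.1 with shXbp1, in which the order of the libraries changed and shScrmbl 2 lay within the range of the others. The 3 measured neutrophil markers summed to 138 to 506 with shScrmbl and 102 to 221 with shXbp1, and Ms4a7, the single border macrophage marker measured, was 0 to 71.7 and 0 to 26.6. Their part in the result was not tested.

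In microglia limma called 0 of the 4 genes measured (0% of 3066 genes called), and edgeR called 0 of 4 (0.391%). Chi3l3 had a log2 difference of -2.70 ± 1.50 (SE, 95% interval -6.45 to 1.05, limma adjusted p = 0.814) and -4.02 by edgeR (adjusted p = 0.930). Msr1 had -3.23 by limma (-8.48 to 2.03, adjusted p = 0.814) and -2.35 by edgeR (adjusted p = 0.899), and Stab1 had -2.82 (-5.70 to 0.06, adjusted p = 0.804) and -0.52 (adjusted p = 0.996). The sign of Arg1 depended on the scale: 0.42 by limma (-3.69 to 4.52, adjusted p = 0.996) and -2.74 by edgeR (adjusted p = 0.996) (limma gave -1.45 without shScrmbl 1, which had 0). At an unadjusted p under 0.05 edgeR had Msr1 (0.0499), DESeq2 had Chi3l3 (0.0165) and limma had 0 of 4, against 5.48%, 2.02% and 5.41% of all genes. By edgeR 3 of 4 genes were at or below -1, against 11.7% of all genes, and 0 of 4 had groups without overlap, against 7.24%. Leaving out any 1 library left edgeR and limma at 0 calls among these genes. With the replicate number as a block, edgeR called Chi3l3 (-4.59, adjusted p = 3.01e-12) and limma called 0, though the labels name no pairs. The block fits left out shScrmbl 4, which had no shXbp1 library of its number. Without that library and without a block, edgeR gave Chi3l3 -4.33 (adjusted p = 0.184).

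The summed signal of monocyte and macrophage markers was lower on average in shXbp1 microglia. All 13 were in the table and summed to 6229, 25389, 15403 and 8800 with shScrmbl and 2584, 9797 and 5076 with shXbp1, where Lyz2 and Cybb were called lower by edgeR. Microglia markers did not show that order, with sums of 7160 to 9760 with shScrmbl and 7520 to 12641 with shXbp1. Against 1000 of the monocyte sum, Chi3l3 was 16.7, 35.8, 222 and 18.2 with shScrmbl and 29.4, 21.1 and 4.72 with shXbp1, so that on this scale only shScrmbl 3 stood well above the rest. Arg1 on the same scale was 0, 46.2, 7.27 and 4.55 with shScrmbl and 58.8, 7.04 and 4.72 with shXbp1, with its highest value in a shXbp1 library that held 2 Arg1 counts. Neutrophil markers summed to 882 to 952 and 414 to 1140, and the 2 border macrophage markers measured, F13a1 and Ms4a7, to 51.9 to 593 and 0 to 152. The part of these cells in the result was not tested.

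**Figure D3:**
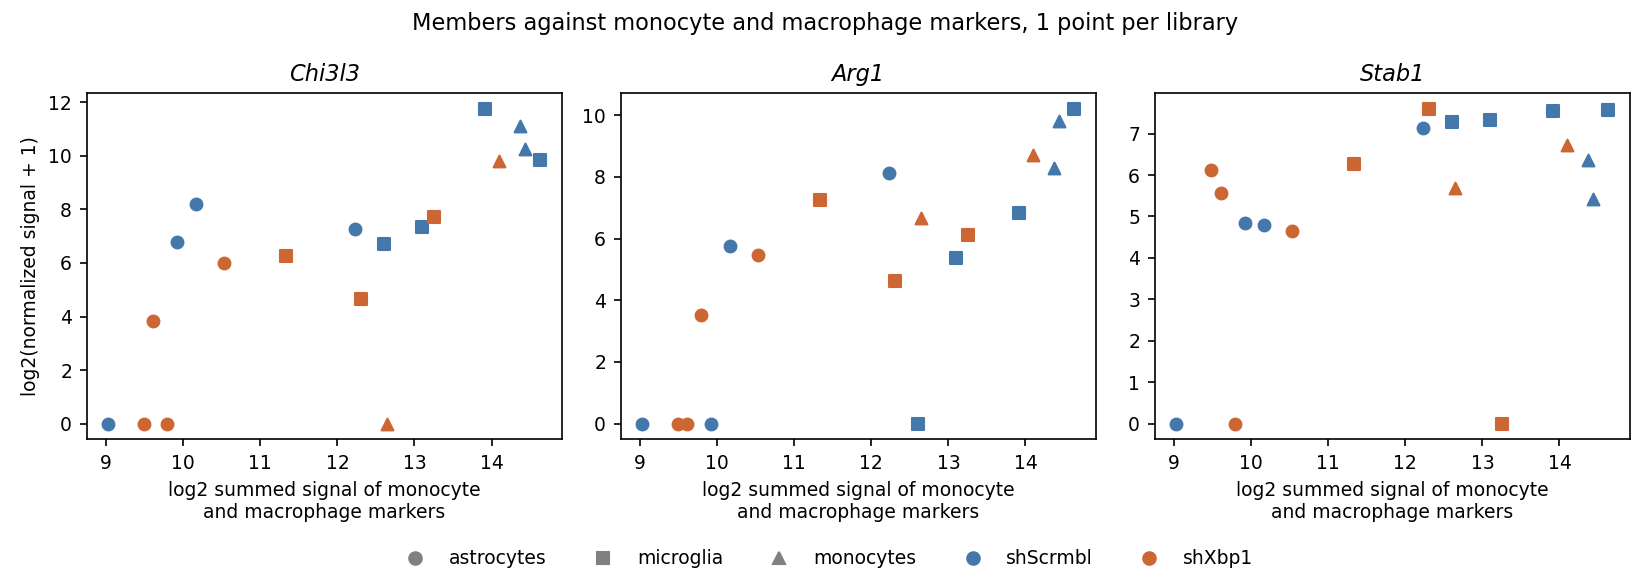
Log2(normalized signal + 1) of Chi3l3, Arg1 and Stab1 against the log2 summed signal of monocyte and macrophage markers without Chi3l3, 1 point per library, with shapes for cell types and colours for hairpins. The marker sum runs over 8 genes in astrocytes and 13 in microglia and monocytes. Within each cell type the library with the highest sum holds the highest Arg1 value but not the highest Chi3l3 value. Stab1 is level across shScrmbl microglia of different sums, on 3 to 20 counts each.

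In monocytes limma called 0 of the 5 genes measured, where 2.68% of 3775 genes were called. Of those 101 calls, 99 were genes at 0 in both shXbp1 libraries, 1 of which held 15654 counts. edgeR called 0 of 5 (0.0265% of all genes). Chi3l3 had a log2 difference of -5.79 ± 4.59 (SE, 95% interval -23.2 to 11.6, limma adjusted p = 0.887) and -1.76 by edgeR (adjusted p = 0.923). Arg1 had -1.35 ± 0.76 by limma (-2.90 to 0.20, adjusted p = 0.887) and -1.03 by edgeR (adjusted p = 0.988), and Mrc1 had -3.79 (-10.4 to 2.77) and -2.02. Msr1 had -0.42 by limma (-2.27 to 1.43) and -0.44 by edgeR, and Stab1 had 0.31 (-1.37 to 1.98) and 0.41. These intervals are wide, so they do not settle whether either gene changed. At an unadjusted p under 0.05 edgeR had 1 of 5 (Chi3l3 at 0.0061), against 4.72% of all genes, and limma and DESeq2 had 0 (4.77% and 0.556%). Groups did not overlap for 3 of 5 genes, Chi3l3, Mrc1 and Msr1, all lower with shXbp1, where 25% of all genes were lower without overlap and 34.9% were apart in either direction. By edgeR 3 of 5 were at or below -1, against 21.4% of all genes.

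The monocyte result depended on shXbp1 2, the deeper of the 2 shXbp1 libraries. Without it limma called Chi3l3 (-10.69, adjusted p = 1.7e-06), Arg1 (-2.37, adjusted p = 0.0205) and Mrc1 (-6.02, adjusted p = 0.000145), in a fit that called 1163 of 3775 genes and in which the lone remaining shXbp1 library was assumed to vary like the shScrmbl ones. In the same setting edgeR called Chi3l3 (-9.87, adjusted p = 7.19e-13) among 29 genes. Monocyte and macrophage markers summed to 22163 and 21143 with shScrmbl and to 6421 and 17545 with shXbp1, so that shXbp1 1, which had no Chi3l3, also had the lowest sum. Chi3l3 per 1000 of that sum was 55.5 and 106 with shScrmbl and 0 and 51.3 with shXbp1, and Arg1 was 40.4 and 14.6 against 15.7 and 23.9. In shXbp1 2 the Chi3l3 value on this scale was thus close to that of shScrmbl 1. Neutrophil markers summed to 774 to 908 with shScrmbl and 209 to 354 with shXbp1, and lymphocyte markers to 2049 to 3046 and 3539 to 3810. Their part in the result was not tested.

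Set side by side, the median log2 difference of the genes measured was -1.23 by limma and -2.33 by edgeR in astrocytes, -2.76 and -2.54 in microglia, and -1.35 and -1.03 in monocytes. The medians of all genes were 0.42 and 0.05, -0.39 and -0.09, and -0.42 and -0.17. By edgeR 3 of 3, 4 of 4 and 4 of 5 genes had a negative difference, against 46.5%, 55.4% and 57% of all genes. Whether the difference of any gene differed between cell types was not tested.

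**Figure D4:**
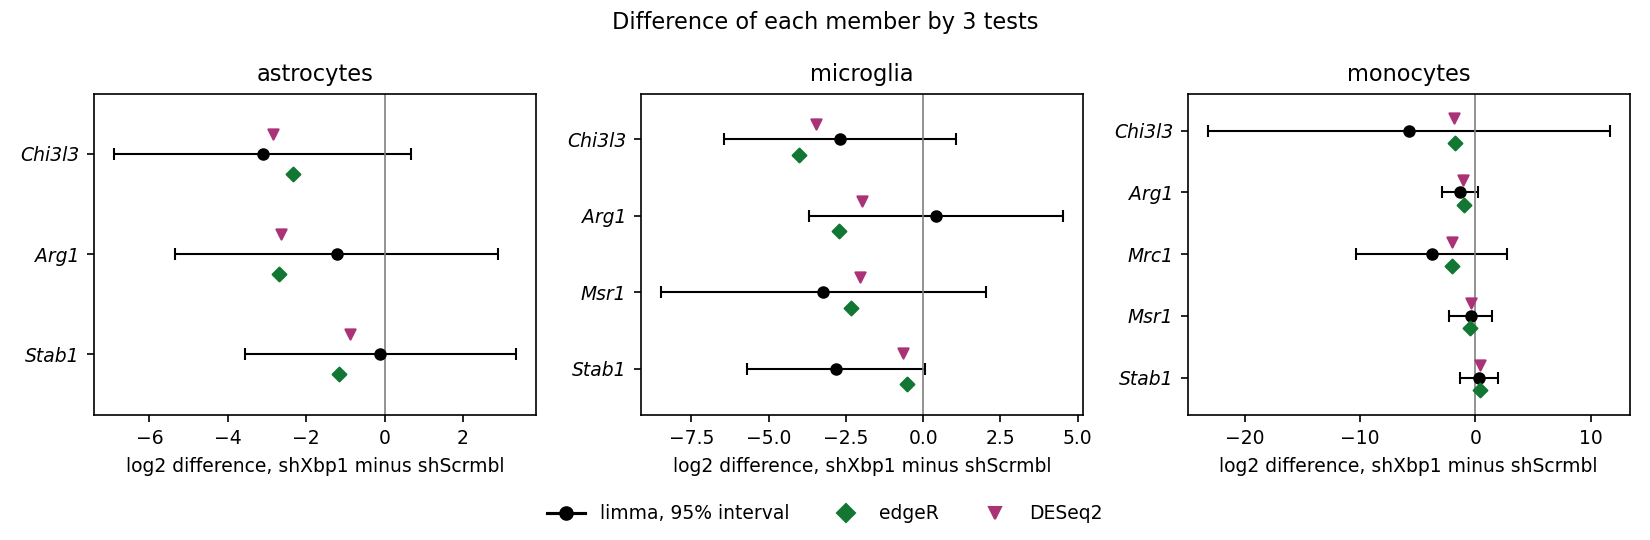
Log2 difference (shXbp1 minus shScrmbl) of each gene by limma with its 95% interval, by edgeR and by DESeq2, in each cell type; the horizontal scales differ. Every limma interval includes 0, and the estimates of Arg1 in microglia lie on both sides of it (0.42 by limma and -2.74 by edgeR).

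The other genes of the programme did not show one direction. Of 18 listed genes of interleukin-4 and interleukin-10 signalling, 7, 7 and 10 were measured in astrocytes, microglia and monocytes, and 4, 5 and 5 of them were higher with shXbp1 by edgeR. None was called by limma or edgeR. Il2rg, the receptor chain that pairs with Il4ra, had 350 ± 146 in shScrmbl and 209 ± 18.3 in shXbp1 microglia (SD, n = 4 and 3). In monocytes Il2rg had 526 ± 126 and 694 ± 410 (n = 2 and 2). Il10ra, which binds interleukin-10, had 220 ± 75.6 and 294 ± 159 in microglia.

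Of 12 listed transcription factors 3 were measured in each cell type, and 0 were called. Klf4, which cooperates with STAT6 in macrophages, had a lower mean with shXbp1 in all 3 tables. It averaged 115 ± 43.8 and 34.8 ± 23.2 in astrocytes (n = 4 and 4, edgeR -1.70, adjusted p = 0.644). Klf4 had 157 ± 124 and 41.3 ± 38.4 in microglia, on 31 and 3 counts. In monocytes it had 94.1 ± 34.3 and 46.2 ± 6.14, on 18 and 3 counts. Every shXbp1 value of Klf4 in microglia and monocytes was under the signal that a count of 0 allowed in its library.

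Among 15 listed scavenger receptors and lectins 3, 3 and 5 were measured, and 1, 2 and 4 were higher by edgeR, with 0 called. Clec7a, the beta-glucan receptor Dectin, had nearly equal means in microglia, 664 ± 314 and 631 ± 353. Mgl2, a galactose-binding lectin that interleukin-4 raises, was 0 and 27.3 in shScrmbl monocytes and 101 and 126 in shXbp1 monocytes, on 3 and 8 counts, and did not pass (edgeR 2.71, adjusted p = 0.923). This is the opposite order to Mrc1 in the same libraries, where 34.9% of all genes had groups apart in either direction. The Mgl2 value of 101 in shXbp1 1 was 2 counts, under the 152 that a count of 0 allowed there.

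Arginine and polyamine genes, which handle the substrate and products of arginase, had 7, 4 and 7 of 16 measured, of which 3, 0 and 5 were higher by edgeR, with 0 called. Odc1, which makes putrescine from the ornithine that arginase releases, was higher in all 4 shXbp1 astrocyte libraries than in any shScrmbl one, at 307 ± 28.9 against 199 ± 74.7 (limma adjusted p = 0.824). Of all 6366 genes tested in astrocytes, 3.16% had groups without overlap in either direction. In microglia Odc1 had 99.0 ± 48.2 and 31.9 ± 55.3, on 23 and 4 counts. Slc7a2, an arginine importer, had 169 ± 70.2 and 55.9 ± 96.8 in shScrmbl and shXbp1 microglia, on 41 and 7 counts. In monocytes Slc7a2 had 159 ± 71.0 and 41.9 ± 59.2, on 27 and 4 counts. All shXbp1 counts of both genes in microglia were in shXbp1 3, and those of Slc7a2 in monocytes were in shXbp1 2. The zeros of shXbp1 1 and 2 in microglia allowed signals of up to 228 and 207, and that of shXbp1 1 in monocytes up to 152. Sat1, which acetylates polyamines, had 642 ± 254 and 435 ± 197 in microglia.

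Of 20 listed secreted products 7, 9 and 9 were measured, with 3, 4 and 5 higher by edgeR, and 1 was called: Ccl17 in monocytes. Ccl17, a chemokine that attracts T cells and is induced by interleukin-4, was 69.9 and 63.7 in shScrmbl monocytes and 303 and 1172 in shXbp1 monocytes, from 5, 7, 6 and 56 counts. It rose from 66.8 ± 4.33 to 738 ± 615 (SD, n = 2 and 2), by 3.14 ± 0.75 (SE) on the log2 scale by limma (adjusted p = 0.00901) and by 3.52 by edgeR (adjusted p = 0.0102). The limma call ended with a pseudocount of 10 (adjusted p = 0.702), with a stricter filter on low values (0.961) and after quantile normalization (0.931), and the edgeR call with the replicate number as a block (0.997). DESeq2 did not call it (3.56, adjusted p = 0.427), nor did edgeR without shXbp1 2 (2.16, adjusted p = 0.448), nor limma or edgeR without shScrmbl 1 (3.21, adjusted p = 0.996, and 3.54, 0.9997) or without shScrmbl 2 (3.08, 0.993, and 3.36, 0.998). Chi3l3, Arg1 and Mrc1 had lower means in the same shXbp1 libraries. Dendritic cells also transcribe Ccl17, and 2 of 9 dendritic cell markers (Xcr1 and Ccr7) were measured, from a list added after these values were seen. They summed to 908 and 783 with shScrmbl and 556 and 356 with shXbp1. Xcr1 alone was 522 to 2290 in the astrocyte libraries, so this sum may not follow dendritic cells. The part of dendritic cells in the result was not tested. In microglia Ccl17 was 104, 126, 56.0 and 240 with shScrmbl and 76.0, 0 and 95.8 with shXbp1.

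The other secreted products named by rule did not pass. Fn1, fibronectin, which is also a monocyte marker, had 562 ± 74.2 and 170 ± 26.0 in shScrmbl and shXbp1 monocytes (limma -1.72, adjusted p = 0.528). Il1rn, the interleukin-1 receptor antagonist, had 175 ± 28.9 and 750 ± 775 (edgeR 2.20, adjusted p = 0.485). Tgm2, a transglutaminase raised by interleukin-4, had 98.2 ± 60.5 and 201 ± 30.7 in microglia.

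Classical activation genes, of the opposing inflammatory state, had 9, 13 and 14 of 19 measured, of which 1, 9 and 7 were higher by edgeR and 0 were called. Il1b, the inflammatory cytokine, had close means in microglia, 1192 ± 696 and 1278 ± 907, and in monocytes, 2107 ± 549 and 2146 ± 1318. Ccl5, a chemokine for T cells, had 2926 ± 842 and 4169 ± 677 in monocytes. The median edgeR difference of this list was -0.92 in astrocytes, 0.05 in microglia and -0.03 in monocytes. By limma it was 0.20, -0.18 and -0.35, with 5 of 9, 6 of 13 and 3 of 14 genes higher, so that the sign of the list's median depended on the test in astrocytes and microglia.

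**Figure D5:**
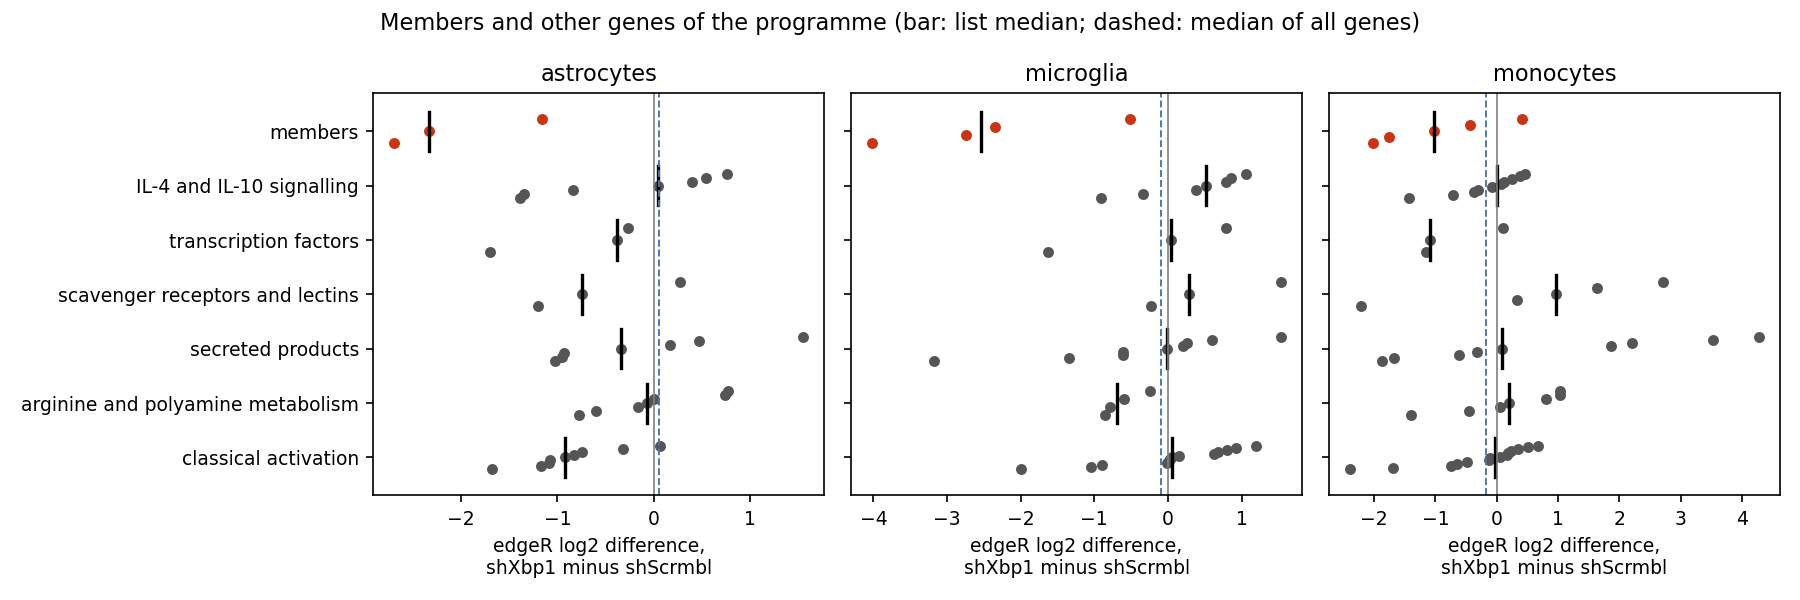
Each point is the edgeR log2 difference (shXbp1 minus shScrmbl) of 1 gene, by list and cell type; black bars are list medians and the dashed line is the median of all genes. The alternative activation genes (members) are centred at -2.33, -2.54 and -1.03. Every list, the members included, lies on both sides of 0 in at least 1 cell type, and for the members this is Stab1 in monocytes (0.41).

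As a description, the genes whose log2 signal was most like that of each member over the libraries of a table were named by Pearson's r, among 5879 genes in astrocytes (8 libraries) and 2227 in microglia (7 libraries). The points of one table share differences in depth and cell composition between libraries. For Arg1 in microglia they were Clec4d, a lectin of inflammatory myeloid cells (0.968), the coatomer gene Copz1 (0.945) and the myeloid chemokine Ccl6 (0.927). In astrocyte libraries Arg1 was most like Ndufaf7 (0.916), Csf3r, the receptor for granulocyte colony-stimulating factor (0.909), and Saysd1 (0.892). Chi3l3 was most like Rpl11 (0.971), Aprt (0.948) and Apoe (0.936) in astrocytes, and Scp2 (0.878), Ier3 (0.877) and Ifi35 (0.864) in microglia. For Msr1 in microglia they were 3 leukocyte genes, Lat2 (0.950), Slamf7 (0.946) and Cd53 (0.919). Msr1 had 21 counts in all microglia libraries and was 0 in shScrmbl 4, shXbp1 1 and shXbp1 2, so these r rested in part on its zeros. Stab1 was most like Mlh3 (0.978), the border macrophage marker Ms4a7 (0.972) and Tmem176a (0.971) in astrocytes, and Rock2, Atp8a1 and Nop10 (0.997, 0.996 and 0.995) in microglia. In astrocytes Stab1 and Ms4a7 were both 0 in shScrmbl 1 and shXbp1 3. Both also had the value of 1 count in shScrmbl 3 and 4 (26.6 and 27.6), and Ms4a7 had 27 counts in all. Their r thus rested in part on shared zeros and single counts. The 0 of Stab1 in microglia was in shXbp1 2, which held 13321 counts.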

How the data were processed

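Astrocytes, microglia and monocytes were sorted after a 70 µm filter and 30% Percoll, and libraries followed a 3′ digital gene expression protocol, per the labels. The authors deposited 1 table of normalized signal per cell type. BWA 0.7.10, limma 3.34.1 and mm10 are named in the submitters' processing notes; the counter and annotation are not given in the sources used here. Each deposited signal was a multiple of 1 step per library (within 0.01 count), so whole counts were recovered. Each nervous system came from 1 mouse, per the labels, so a library was taken as 1 mouse. Each table (6376, 3067 and 3776 genes) was fitted alone with limma 3.58.1 (trend, robust) on log2(signal + 1), without covariates, for genes that reached a signal of 1 in a number of libraries equal to the smaller group's size, with Benjamini-Hochberg adjustment over all genes. All members in a table passed this filter. edgeR 4.0.16 and DESeq2 1.42.0 on recovered counts were alternatives, tested on simulated data. Symbols were matched ignoring case to the row names of the deposited data, with synonyms from RefSeq, and gene positions came from GENCODE M21. List genes were named by rule: up to 3 per list and cell type with the highest mean, and any called, though not every gene so named is reported here. The members and lists were chosen with earlier results of these data known.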

Additional observations from a re-analysis of the deposited data

Results flagged for a closer look

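Arg1 in shScrmbl microglia had 1 library far from the others. Its signal was 1174 in shScrmbl 2 (93 counts) and 0, 112 and 40.0 in the other 3, so that the gap to the nearest library was 0.905 of the whole range, above the 95% critical value of Dixon's test for 4 values. Across the 10 groups large enough for this test, chance flags about 1 in 20. Monocyte and macrophage markers were also highest in that library, at 25389 against 6229 to 15403, and their part in the value was not tested.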

How the results depend on the processing

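No member was called in any cell type under another pseudocount, no filter, a stricter filter, DESeq2, edgeR on all libraries, quantile normalization or equal totals. The stricter filter removed Chi3l3, Arg1 and Stab1 in astrocytes, Msr1 in microglia and Mrc1 in monocytes, which have no value there. Arg1 in microglia turned from 0.42 to -0.28 with a pseudocount of 10, to -2.74 by edgeR, to -1.97 by DESeq2 and to -0.52 after quantile normalization. Over leaving out 1 library at a time, limma gave it -1.45 to 1.95, Arg1 in astrocytes -2.38 to 0.32, Stab1 in astrocytes -1.50 to 1.25 and Stab1 in monocytes -0.21 to 0.82; the edgeR ranges that crossed 0 were -4.74 to 0.13, -1.50 to 0.87 and -0.36 to 0.96 for the last 3. Chi3l3 stayed negative throughout, at -4.96 to -2.23 in astrocytes, -3.45 to -1.75 in microglia and -10.69 to -0.88 in monocytes by limma. The number of members called ran from 0 to 3 in monocytes by limma, from 0 to 2 in astrocytes by edgeR and from 0 to 1 in monocytes by edgeR, and was 0 in the other such ranges. The leave-one-out and block fits of edgeR, the leave-one-out pooled ratios and all alternatives for Ccl17 were chosen after seeing the data. The cause of these changes was not tested beyond the smaller number of libraries.

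The deviations of same-numbered libraries of the 2 hairpins had correlations of -0.0756 to 0.0644. The labels name no pairs, so the main fits used none. With the replicate number as a block, edgeR called 1 member in microglia, Chi3l3 (-4.59, adjusted p = 3.01e-12), among 24 genes. That fit left out shScrmbl 4, which had no shXbp1 library of its number. Without a block edgeR called 12 genes on all microglia libraries and 16 without shScrmbl 4. With that block limma called 0 members in each cell type. In astrocytes 5 of 8 libraries correlated best with their own number, as did 4 of 6 in microglia and 0 of 4 in monocytes. With 2 monocyte libraries per hairpin both numbers give the same correlation, so that 0 of 4 is a single outcome. These values do not settle whether the numbers pair the libraries.

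Ccl17 in monocytes lost its call by limma with a pseudocount of 10 (2.99, adjusted p = 0.702), the stricter filter (3.14, 0.961), DESeq2 (3.56, 0.427) and quantile normalization (3.31, 0.931). Its limma difference ran from 2.17 to 4.11 and its edgeR difference from 2.16 to 4.07 over leaving out 1 library. The edgeR call also ended with the replicate block (3.28, adjusted p = 0.997). The count of all genes called in monocytes by limma was 101, and 0 with a pseudocount of 10, the stricter filter or quantile normalization.

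In microglia limma called 0 genes, against 6 after quantile normalization and 2 with equal totals. Depth limits every member: Mrc1, Msr1 and Stab1 had 1 to 42 counts per group, and Arg1 and Chi3l3 had 4 and 5 in shXbp1 microglia.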
